A study of Mus musculus with 2 samples.

Results

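The Arraystar mouse LncRNA microarray used here carried a group of probes named humanlincRNA, each with a locus number and a strand sign, and their signals were described in control mouse liver and in liver after hepatic ischemia/reperfusion (I/R). Members were all non-control probes whose systematic name began with humanlincRNA and ended in + or -, whatever their signal. There were 1217 such probes among 59729 non-control probes, 608 for the + strand and 609 for the - strand, covering 609 loci. Both strands were probed at 608 loci, and 1 locus had a - probe only. The 691 probes named mouselincRNA, which covered 351 loci in the same format, served as a yardstick.

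Liver RNA came from male C57BL/6J mice aged 10 to 12 weeks. The I/R livers had 60 min of ischemia of 70% of the organ, with the left and median lobes clamped, and then 6 h of reperfusion, and RNA of 3 livers was mixed for the I/R array. The control group was sham-operated, and whether its RNA was also mixed is not given in the sources used here. No allele, transgene or drug distinguished the groups. There was 1 array for each condition, so no difference between conditions has a replicate check and no p-value was computed.

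Long intergenic noncoding RNAs (lincRNAs) are transcripts without a known coding sequence that lie between protein-coding genes, and many were first recognised from the chromatin marks of active promoters and transcribed bodies. They are often expressed at low levels and in few tissues. Their sequence is commonly less conserved between human and mouse than that of coding genes, whereas the position of a locus relative to its neighbours can be kept. Going by their name and the mouse array, the members are taken here as mouse probes named after human loci. How the human loci were placed on the mouse genome, and to what + and - refer, is not given in the sources used here. The function of the individual loci is not given either.

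Both arrays came from 1 slide and 1 scan, and no member was saturated. None of the 40 liver, blood cell, endothelial, stellate, cholangiocyte and injury-response marker genes fixed for this work is named in the files, so the tissue could not be checked against its markers. In bulk RNA, fewer cells of a type and less RNA per cell cannot be told apart.

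About 3 in 5 members gave a signal on both arrays, a smaller share than over the whole array and close to that of the mouselincRNA probes. The scanner software calls a spot positive when its signal significantly exceeds its own background. By that call 881 of 1216 members (72.5%) were positive in control liver and 781 of 1217 (64.2%) in I/R liver. The remaining 335 and 436 members had the lowest processed signal of their array, 2.53 and 3.44 fluorescence units, so that values at this floor have no order. The member humanlincRNA1835+ was flagged as non-uniform on the control array, where its processed signal was 186 with a scanner error of 64.0, and it was at the floor on the I/R array. It was left out of the folds, which leaves 1216 members.

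Of these, 739 were detected, that is positive on both arrays (60.8%), against 61.1% of mouselincRNA probes and 80.0% of all probes. A further 142 members were positive on the control array only, 42 on the I/R array only and 293 on neither. Under the stricter call, well above background, 468 members passed on both arrays (38.5%), 109 on the control array only, 20 on the I/R array only and 619 on neither. The corresponding share on both arrays was 39.4% for mouselincRNA and 62.3% for all probes. The excess of control-only over I/R-only calls was also present in mouselincRNA, at 8.54% against 1.45%, and in all probes, at 7.12% against 1.91%.

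The signals of the members were mostly low. The median processed signal was 11.1 on the control array and 10.2 on the I/R array, with upper quartiles of 45.6 and 39.0. For mouselincRNA the medians were 11.4 and 10.6, and for all probes 41.1 and 40.9. Signals of at least 1000 were reached by 2.14% of members on each array, by 2.32% and 2.17% of mouselincRNA probes, and by 13.2% and 13.4% of all probes. Probes differ in how well they hybridise, so these are distributions of signal and do not rank transcripts.

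The array also carried 20 probes named as negative sequences, with 1121 unflagged spots. Of these spots 49.0% were positive in control and 40.7% in I/R liver, and 11.9% were well above background on both. The brightest reached 108 and 85.6, and all of the spots of 1 negative probe (median signals 67.4 and 59.5) were well above background on the control array. The calls were uneven over the 20 probes. The median signal of 12 was at the floor on both arrays, and 6 had most of their spots well above background on the control array. Only 160 members (13.1%) were brighter on both arrays than every negative spot of that array. A positive call for a member between the floor and that level was therefore also given to part of these negative sequences, and what share of the members' signal is of this kind was not tested.

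**Figure D1:**
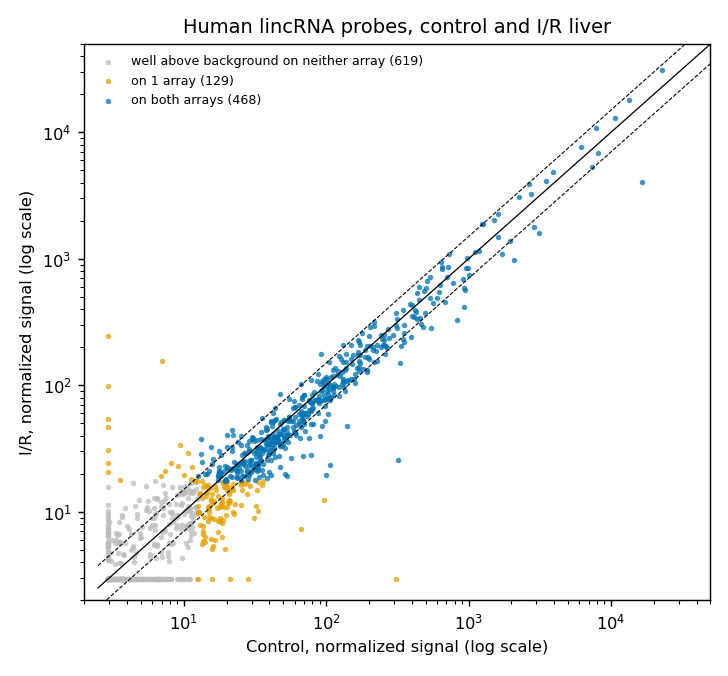
Quantile-normalized signal of the 1216 members with a fold, control array on the x axis and I/R array on the y axis, both on log scales and in fluorescence units. The solid line marks equal signal and the dashed lines mark folds of 1.5 and 0.7. Most of the 468 members well above background on both arrays (blue) lay between the dashed lines. The 129 called well above background on 1 array only (orange) sat at the dim end, apart from a few bright ones.

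The brightest members kept a high signal under both conditions. On the control array 26 members, at 25 loci, reached a processed signal of 1000, and at only 1 locus, humanlincRNA2163, did both strands do so. The probe humanlincRNA2296+ gave 22949 in control and 30535 in I/R liver, a normalized fold of 1.36 (95% measurement interval 1.03 to 1.79). The interval combines the scanner's own error of both spots and covers no biological spread. Its opposite strand gave 16.2 and 26.1. The probe humanlincRNA2330+ went from 13240 to 18146, a fold of 1.37 (1.04 to 1.80), whereas its - strand was at the floor on both arrays. Over all 26 bright members, the opposite strand was well above its own background on both arrays for 13 and at the floor on both arrays for 6. The probe humanlincRNA2199+ gave 10695 and 13195, with 61.4 and 40.0 for its - strand. The probe humanlincRNA0238- gave 8143 and 6934, with its + strand at the floor on both arrays. The folds of these last 2 bright probes, 1.22 and 0.847, had intervals that included 1 (0.926 to 1.61, and 0.642 to 1.12).

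Of these 26 bright members, 1 had a fold of 1.5 or more and 5 one of 0.7 or less. Of all 7900 probes with a control signal of at least 1000, 6.2% were higher and 11.8% lower by these thresholds, and with so few members no difference from them was read. The exception among the 5 brightest was humanlincRNA0847-, which fell from 16529 to 4135. Chosen after their values were seen, the other bright members past a threshold were humanlincRNA0111+ (2058 to 984), humanlincRNA2159- (3072 to 1643), humanlincRNA0324- (2841 to 1833) and humanlincRNA2163+ (1683 to 1108), all lower in I/R, and humanlincRNA0965+ (1233 to 1935), which was higher. At humanlincRNA2163 the - strand went from 3846 to 4939 while the + strand fell.

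Strand use was read from the call of each probe against its own background, because signals of different probes are not comparable; where both strands of a locus are given, each is to be read against its own value in the other condition. At most loci with a signal well above background, a single strand gave it. Among 607 loci with both strands measured, 100 had both strands well above background on both arrays, 132 the + strand only, 136 the - strand only and 239 neither. A single strand thus passed at 268 loci (44.2%) and both at 16.5%. Among 340 mouselincRNA loci the shares were 44.7% and 17.4%.

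Neither sign was favoured by much where the well above background call was required on both arrays. The + strand was well above background on both arrays at 38.2% of loci and the - strand at 38.9%. The - strand passed at 43.1% of the loci where the + strand passed and at 36.3% of those where it did not, so a call on 1 strand went with only a slightly higher share of calls on the other. In mouselincRNA these shares were 45.7% and 38.9%. With the weaker positive call, 233 loci had both strands, 120 the + strand only, 152 the - strand only and 102 neither. Here the - strand was called somewhat more often (63.4%) than the + strand (58.2%), and for mouselincRNA the order was the other way, 59.4% and 63.2%.

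**Figure D2:**
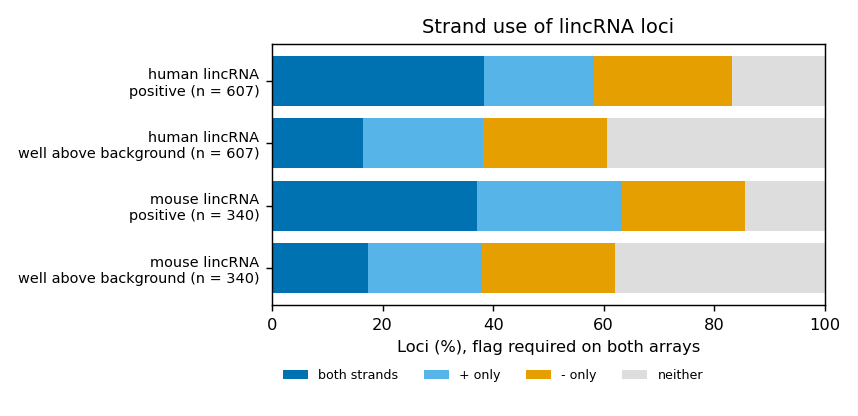
Share of loci in percent (x axis) by which strand carried the call on both arrays, for 607 human lincRNA and 340 mouse lincRNA loci under the positive and the well above background call. Both sets divide alike: 16.5% and 17.4% of loci had both strands well above background, and 44.2% and 44.7% had a single strand.

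By condition, 145 loci had both strands well above background on the control array and 104 on the I/R array. Single-strand loci numbered 287 and 280, and loci with neither strand 175 and 223. On the control array the - strand passed at 50.2% of loci and the + strand at 44.8%. For mouselincRNA these shares were 50.3% and 46.5%. On the I/R array the members had 40.5% and 39.9%, and mouselincRNA 42.6% and 39.7%. The strand that was called differed between arrays at 2 loci, both chosen after their values were seen. At humanlincRNA0248 the + strand went from 308 to the floor and the - strand from the floor to 46.7. At humanlincRNA1315 the + strand went from 9.76 to 33.6 and the - strand from 16.2 to 11.5, values close to background.

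Members fell more often than they rose after I/R. Among the 739 detected members, 82 (11.1%) reached a normalized fold of 1.5 or more, and 154 (20.8%) had one of 0.7 or less. Over all 47735 detected probes 14.2% were higher and 16.3% were lower, and the mouselincRNA shares were 10.7% and 20.9%. The median log2 fold of the detected members was -0.15, against -0.17 for mouselincRNA and -0.06 for all probes. The median 95% measurement half-width of a detected member was 0.58 on the log2 scale, close to the log2 of the upper threshold. The interval lay on the side of the change for 32 of the 82 rises and 78 of the 154 falls. Of 399 negative spots positive on both arrays, 37.3% were past either fold threshold without normalization, against 31.9% of detected members after it. By direction, 15.8% of these negative spots were higher and 21.6% lower, so falls were the more frequent there too.

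With members well above background on both arrays, the difference between rises and falls was wider. Of 468 such members 22 were higher (4.70%) and 73 lower (15.6%), where 11.3% and 12.5% of all such probes were called. For mouselincRNA the numbers were 16 and 43 of 272. Cyclic loess in place of quantile normalization gave 35 higher and 50 lower members, with 13.8% and 9.16% of all probes, so that the share of rises among the calls moved from 23.2% to 41.2%. Both strands were similar, with 12 rises and 35 falls among 232 + probes and 10 rises and 38 falls among 236 - probes. A log2 fold below 0 was seen in 301 of the 468 members (64.3%), in 66.2% of mouselincRNA probes and in 55.4% of all probes.

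The rises were dim and the falls less so. The 22 rises had a median processed signal of 21.1 in control and 38.4 in I/R, and the 73 falls of 77.9 and 39.4. The lowest control signal was 12.7 among rises and 28.6 among falls. By construction a fall could be called only from a higher control signal, since the lowest normalized signal called well above background was 12.5 on the control array and 17.5 on the I/R array. In this group the interval excluded 1 for 18 of the 22 rises and 63 of the 73 falls.

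The scarcity of rises among members was also seen in groups of probes with like signal, from 16 upwards. Among detected members with a geometric mean normalized signal of 64 to 256, 3 of 151 were higher (1.99%) and 14 lower (9.27%), where the shares over all probes were 11.5% and 12.6%. At 256 and above 1 of 80 members was higher (1.25%) and 17 were lower (21.2%), where the shares over all probes were 8.83% and 11.5%. From 16 to 64, 21 of 276 members were higher (7.61%) and 66 lower (23.9%), where the shares over all probes were 14.6% and 18.2%. Those of mouselincRNA were 6.13% and 24.5%. Below 16, rises and falls were equally frequent, at 57 each of 232 (24.6%), where 25.6% of all probes were called in each direction. The mouselincRNA probes of 64 to 256 had 3.06% higher and 14.3% lower, whereas at 256 and above 4 of 40 were higher and 6 were lower. None of these differences was tested, since probes are not replicates.

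**Figure D3:**
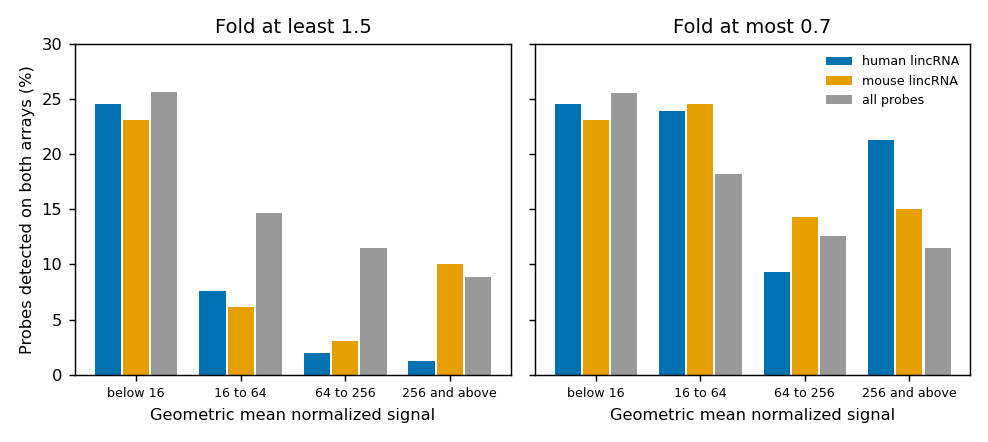
Percentage of probes detected on both arrays (y axis) with a fold of at least 1.5 (left) or at most 0.7 (right), by geometric mean normalized signal in fluorescence units, for human lincRNA, mouse lincRNA and all probes. Above a signal of 64 the members rose in 1.99% and 1.25% of cases, below the share of all probes, and fell in 9.27% and 21.2%.

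A stricter call required a 2-fold change or more (a fold of 0.5 or less for falls) and a measurement interval that excluded 1. It was met by 5 rises and 18 falls among the 468 members, that is 1.07% and 3.85%, where 4.71% and 2.32% of all probes well above background met it. Among 272 mouselincRNA probes it was met by 3 rises and 3 falls. Of the 18 falls of the members, 13 were + probes and 5 were - probes.

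Among members well above background on both arrays, the largest fall was that of humanlincRNA0209-, whose processed signal went from 314 to 25.4. Its normalized signal was 12.4-fold lower in I/R (95% measurement interval 8.42 to 18.2). The + strand of this locus was at the floor on both arrays, so the locus was seen from the - strand alone. The next falls were smaller and began from a lower signal. The probe humanlincRNA1468+ went from 100.3 to 19.3, 5.10-fold lower (3.26 to 7.99), and its - strand from 25.5 to 16.1. The probe humanlincRNA1714- went from 107 to 23.4, 4.54-fold lower (3.03 to 6.79), with the + strand at the floor on both arrays. The study lists these 3 probes as changed, from the same arrays. The I/R signals of these 3 probes were below that of the brightest negative spot, so the sizes of their falls rest on dim values on that array. The control signals of humanlincRNA1468+ and humanlincRNA1714- were also below the brightest negative spot of the control array (107.6).

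The fall of humanlincRNA0847- was of another kind, because both values were far above background. It went from 16529 to 4135, which was 4.10-fold lower (3.11 to 5.41), while the + strand went from 66.7 to 103. The remaining falls named by the rule ended close to background. The probe humanlincRNA0388+ went from 140 to 47.5, humanlincRNA1563+ from 78.3 to 27.7, humanlincRNA2017- from 53.4 to 19.0 and humanlincRNA0115+ from 52.0 to 19.7. These were 2.60-fold to 2.95-fold lower. Of these probes, only humanlincRNA0388+ had a control signal above the brightest negative spot of that array (107.6). The opposite strand of humanlincRNA2017 was at the floor on both arrays, that of humanlincRNA0388 went from 12.1 to 17.0, and that of humanlincRNA0115 from 78.9 to 63.6.

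Among members well above background on both arrays, the largest rise was smaller than any of the 5 largest falls. The probe humanlincRNA2101+ went from 13.4 to 37.3, a fold of 2.84 (1.77 to 4.57). The probe humanlincRNA1563- went from 13.3 to 28.2 (2.16-fold), humanlincRNA0152- from 15.8 to 32.4 (2.09-fold), humanlincRNA0699+ from 20.3 to 40.4 (2.03-fold) and humanlincRNA2178+ from 22.1 to 44.3 (2.02-fold). The brightest of the named rises was humanlincRNA0396+, which went from 92.4 to 177, a fold of 1.91 (1.44 to 2.55), with its - strand at the floor on both arrays. The probes humanlincRNA0218- (13.7 to 24.4) and humanlincRNA2252+ (22.5 to 40.4) had folds of 1.83 and 1.82. The signals of these 8 probes were within the range of the negative spots of their array, except the I/R signal of humanlincRNA0396+. At none of the 8 rising loci did the opposite strand pass the upper threshold. That of humanlincRNA0699 was at the floor on both arrays, that of humanlincRNA2252 had a fold of 0.980, that of humanlincRNA0218 of 1.02, and that of humanlincRNA2178 went from 6.65 to 7.67. The + strand of humanlincRNA0152 went from 6.03 to the floor.

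**Figure D4:**
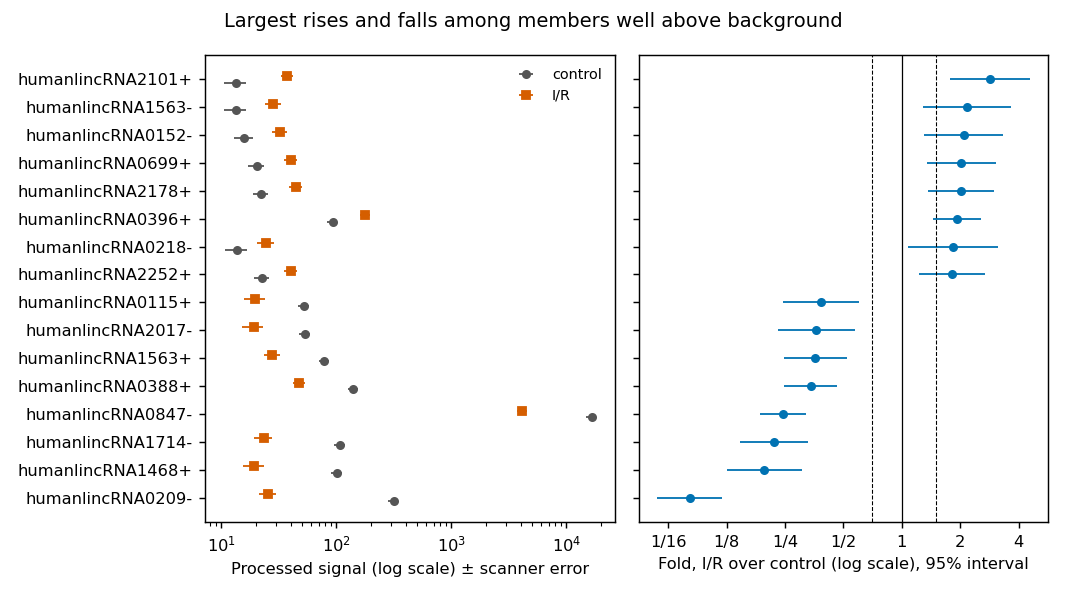
The 8 largest rises and 8 largest falls among members well above background on both arrays. The left panel gives the processed signal in fluorescence units on a log scale with the scanner error, control in grey and I/R in orange, and the right panel gives the normalized fold, I/R over control, on a log scale with its 95% measurement interval and dashed lines at 1.5 and 0.7. The probe humanlincRNA0847- stands far to the right of the others, falling from 16529 to 4135, whereas the other named members moved between signals of 13 and 314.

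For members well above background on 1 array only, the fold is a bound, with the higher of the probe's own signal and the lowest normalized signal called well above background taken on the dim array. Of the 109 members called on the control array only, 58 had a bound towards lower, of which 5 reached 2 (4.59%), and 51 had none, because their control signal was below the value taken for the I/R array. All 20 called on the I/R array only had a bound towards higher, and 8 reached 2 (40.0%). Over all probes called on 1 array the shares that reached 2 were 5.31% lower and 52.8% higher, and for mouselincRNA 4 of 59 and 3 of 10 probes reached it. The bounds take the bright spot at its measured signal, and the value at the low end of its 95% scanner error follows in parentheses. The probe humanlincRNA0854+ was at the floor in control and gave 248 in I/R, at least 19.8-fold higher (16.2), with its - strand at the floor on both arrays. The probe humanlincRNA1862- went from 7.39 to 157, at least 12.5-fold higher (10.2), with its + strand at 39.7 and 30.6. The probe humanlincRNA2021- went from the floor to 99.1, at least 7.95-fold higher (6.46), with its + strand at the floor. In the other direction humanlincRNA0248+ went from 308 to the floor, at least 17.7-fold lower (14.5). The probe humanlincRNA1428- went from 97.2 to 12.2, at least 5.54-fold lower (4.52), with its + strand at 73.3 and 57.4. The probe humanlincRNA0849- went from 67.2 to 7.08, at least 3.82-fold lower (3.10), with its + strand at the floor on both arrays. Each of these rests on 1 spot per array. The control signals of humanlincRNA1428- and humanlincRNA0849- were below the brightest negative spot of that array (107.6).

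No shared change of the strands of a locus was seen, within the limits of measurement error. Among the 100 loci where both strands passed the stricter background call, the log2 folds of the strands had the same sign at 48. As a description over 100 loci, which share both arrays, Pearson's r of the folds was -0.21 and Spearman's rho was -0.11, and r was -0.16 without humanlincRNA0847. For the 59 mouselincRNA loci of this kind r was -0.08, and 29 had the same sign. No strand passed a threshold at 60 loci, a single strand at 32, and both at 8.

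The 8 loci with both strands past a threshold were picked by their values. Both strands were lower at 3 of them. At humanlincRNA1364 the + strand went from 390 to 240 and the - strand from 535 to 288. At humanlincRNA0691 they went from 671 to 466 and from 61.1 to 41.5, and at humanlincRNA2314 from 28.7 to 17.9 and from 458 to 308. Both strands were higher at 0 loci. Among the 59 mouselincRNA loci both strands were lower at 0 and higher at 0. The strands went in opposite directions at 5 of the 100 loci, against 2 of the 59 mouselincRNA loci. At humanlincRNA0847 the log2 folds were 0.63 for the + strand and -2.03 for the - strand. At humanlincRNA1563 they were -1.48 and 1.11, and at humanlincRNA2101 1.51 and -0.82. The others, humanlincRNA1634 (0.69 and -0.63) and humanlincRNA2233 (0.63 and -0.52), were close to the thresholds. Except at humanlincRNA0847, all signals of these opposite loci lay within the range of the negative spots of their array.

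**Figure D5:**
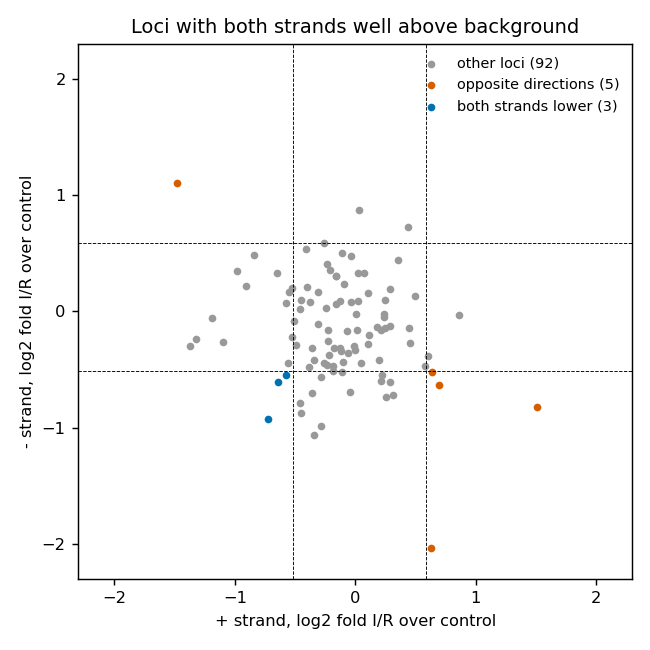
Log2 fold, I/R over control, of the + strand (x axis) and the - strand (y axis) at the 100 loci with both strands well above background on both arrays; dashed lines mark folds of 1.5 and 0.7. The points show no shared direction (r = -0.21): 5 loci changed in opposite directions (orange), 3 fell on both strands (blue) and none rose on both.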

How the data were processed

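Labelled cRNA from liver, made from random primers along transcripts after rRNA removal, was hybridised to 1-colour arrays. The deposited scanner files hold intensity values made by the authors with Agilent Feature Extraction 11.0.1.1 (design build mm9): a processed signal, background-corrected, with an error and background calls per spot. The deposited series table, headed as normalized, equals the processed signal at all 125026 values, so it was not normalized between arrays. The number of arrays, 1 per condition, limits precision.

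Spots flagged as outliers on an array were left out. Log2 processed signals of 59709 non-control probes, without the negative-sequence probes, were quantile-normalized (limma 3.58.1, R 4.3.3), after the methods of the study. A member was detected when positive and significant on both arrays. Fold thresholds were 1.5 and 0.7. Measurement intervals are 1.96 standard errors from the scanner errors, taken on the log2 scale. The rest was computed with Python 3.11.15. The fold step was tested on simulated data, with changes well past the thresholds planted in members well above background only. That test does not cover smaller changes or dimmer members.

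Members and lists were chosen with earlier results of these data known. Named members were first those the study lists as changed from these same arrays: humanlincRNA0209-, humanlincRNA1468+ and humanlincRNA1714-. Also named were the 8 largest rises and 8 largest falls among members well above background on both arrays. The rest were the 3 largest bounded rises and falls, the 5 brightest on the control array, and the opposite strands. Both arrays hold 1 spot per member. Alternatives were other normalizations, background corrections, filters and thresholds.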

Additional observations from a re-analysis of the deposited data

How the results depend on the processing

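With 1 array per condition, no replicate could be left out. No paired analysis was possible because each condition has a single array and no result comes from a test. The counts depend mostly on how dim probes are treated. Of 739 detected members, 468 passed the well above background call on both arrays, and loci with both strands called fell from 233 to 100. Counts of rises and falls, 82 and 154, became 22 and 73 with members well above background, 3 and 28 with normexp background correction (offset 50), 29 and 51 at folds of 2 and 0.5, and 32 and 78 when the measurement interval also had to exclude 1. Without a filter on dim probes 119 of 1216 members were higher and 233 lower. An alternative chosen after seeing the data, only the 160 members brighter than every negative-sequence spot on both arrays, gave 2 rises and 24 falls. Over all probes, 14.2% were higher and 16.3% lower when detected, and 11.3% and 12.5% when well above background. Among probes well above background, normexp called 0.427% of members higher and 5.56% lower, where 5.49% and 5.69% of all such probes were called. For the other counts in this section no share over all probes is given. Normexp with an offset draws folds of dim probes towards 1 by construction. Under other normalizations (75th percentile, cyclic loess, none, and quantiles over named long noncoding probes only) and with flagged spots kept, rises numbered 70 to 92, falls 135 to 171, and the median log2 fold was -0.17 to -0.08. Without a filter on dim probes that median was 0, since members at the floor on both arrays have equal values. Of 120 values of 20 named members under these alternatives, 0 changed sign and 12 moved beyond their measurement interval, all 12 under normexp.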
